A study of Mus musculus with 12 samples.

Results

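The nuclear-encoded subunits of the mitochondrial respiratory chain were followed in muscle progenitors of the mouse head and trunk. Members were all genes with a probe set annotated to that gene alone whose symbol begins with Nduf, Uqcr, Sdha to Sdhd, Cox4 to Cox8 or Atp5, without the Ndufaf assembly factors. The rule used names and no measured value, and it gave 79 genes of the 12393 on the array, with 150 probe sets. Where a gene had several, the brightest on average was used. Sorted by the start of the symbol, the members comprised 34 genes of complex I, 4 of complex II, 8 of complex III, 16 of complex IV and 17 of complex V. Whether each protein belongs to the complex its symbol names was not checked. Of these, 74 had a signal above the array's median probe set on at least 2 of the 12 arrays and were tested, among 7722 genes in all.

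All embryos were of the ICR strain and of the genotype Myf5Cre;RosaYFP, in which Cre from the muscle determination gene Myf5 switches on a yellow fluorescent protein in cells that have expressed Myf5 and in their descendants. Fluorescent cells were sorted from the head or the trunk at embryonic day 9.5 (E9.5), 10.5 (E10.5) or 11.5 (E11.5). This gave 6 groups of 2 arrays each, and no group was treated. The sort keeps labelled cells of any later fate. Whether the arrays of 1 group stem from different embryos, litters or pools is not stated, so the p-values cover the spread among these samples alone, which may be technical.

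The respiratory chain sits in the inner mitochondrial membrane. Complex I takes electrons from NADH and complex II from succinate, complex III passes them to cytochrome c, and complex IV hands them to oxygen. The proton gradient built on the way drives complex V, the ATP synthase, and several subunits of complex IV exist as a widely expressed form and a form of heart and skeletal muscle that replaces it as muscle matures.

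The arrays had median signals of 108.6 to 110.4 intensity units, or 6.76 to 6.79 on the log2 scale. The labelled cell type was checked against its markers. Of 22 skeletal muscle markers, 20 exceeded the median probe set on at least 1 array, the exceptions being Myf6 and Ckm. The stricter filter of at least 2 arrays was passed by 19, and Des was not among them. These counts are over the 12 arrays together and not within each group. Xist, transcribed from the inactive X chromosome, was low at E10.5 on replicate 1 of either tissue (log2 7.35 in head and 6.37 in trunk) and lay at 11.89 or more on the other 10 arrays. Both low arrays belong to E10.5, so results for that stage are also given without them.

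The respiratory chain gave bright signals that varied little between groups. The mean log2 signal of the 74 tested members ran from 6.54 to 13.62 with a median of 11.07, against a median of 8.86 over all genes tested. The 6 group means of a member spanned 0.40 log2 units at the median, against 0.66 over all genes tested. Only 4 members spanned more than 1 log2 unit, which 25.4% of all genes tested did. The narrowest was Ndufb2, an accessory subunit of complex I, at 0.11, and the widest was Atp5md, a small subunit of complex V, at 1.79. Replicates of a member differed by a pooled SD of 0.18 at the median, against 0.24 over all genes tested. None of these values was matched for brightness, in which the members and all genes tested differed. The part of brightness in the narrow spans was not tested.

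Of the 79 members, 5 lay below the median probe set on all 12 arrays: Ndufb1, Cox4i2, Cox6b2, Cox7a1 and Cox8b. They were not tested.

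**Figure D1:**
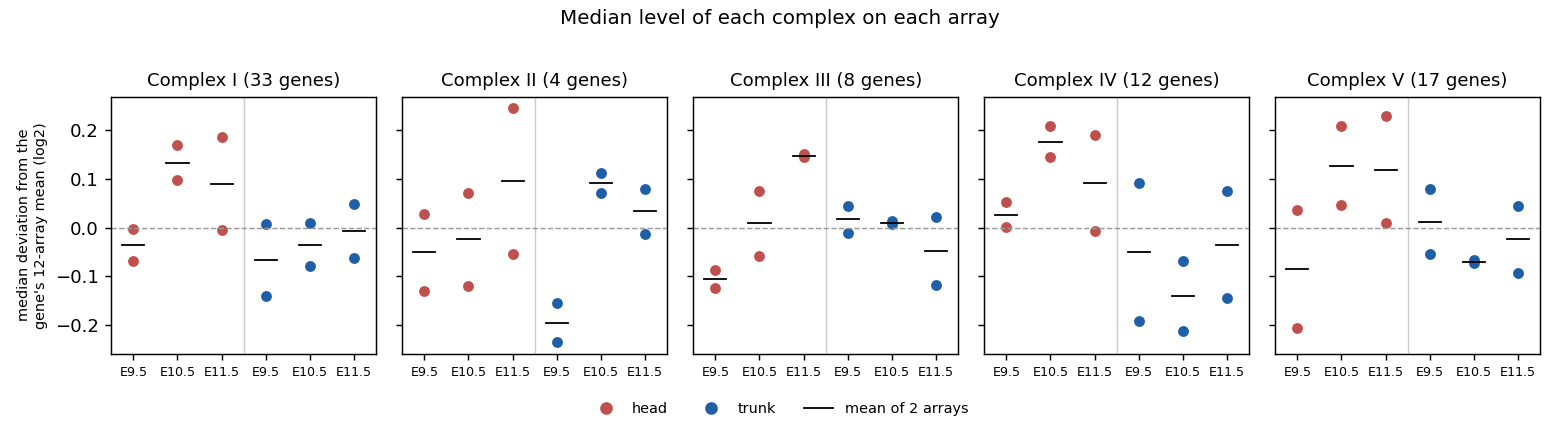
Median over the tested members of each complex of the deviation from the gene's own mean over 12 arrays (vertical axis, log2), by tissue and stage (horizontal axis). Points are single arrays and bars are means of 2 arrays. Every point lies within 0.25 log2 units of 0, and the E10.5 head arrays lie above the E10.5 trunk arrays for complexes I, IV and V.

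The first comparison set head against trunk, averaged over the stages. Cox6a1, Ndufa5 and Atp5k were higher in head by less than 2-fold, and no member was lower. They make 3 of 74 members, whereas of all genes tested 6.85% were higher in head and 10.5% were called in either direction (limma, Benjamini-Hochberg adjusted p under 0.05 over all genes tested). These 3 genes were picked by this comparison, so any separation of their arrays by tissue adds no support to it. The median difference was 0.09 over the members and −0.00 over all genes tested, and 59 of the 74 members lay above 0. The 95% interval of the difference stayed within 2-fold in both directions for 72 members, against 87.5% of all genes tested. In bulk samples, fewer cells of a type and less RNA per cell cannot be told apart.

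Among the 33 tested members of complex I, the median difference was 0.09 and 27 lay above 0. Ndufa5, an accessory subunit of the arm that reaches into the matrix, had log2 signals of 11.20 and 11.25 in head at E9.5, 11.82 and 11.62 at E10.5, and 11.69 and 11.46 at E11.5. In trunk its signals were 11.33 and 10.59, then 11.07 and 10.96, then 11.32 and 11.35. The tissues separated at E10.5 and E11.5 and overlapped at E9.5. The difference was 0.40 ± 0.12 (SE, 6 arrays a side), or 1.32-fold, with a limma adjusted p of 0.0478. The dimmer of the 2 probe sets of Ndufa5 gave 0.14. The most negative value in the complex was that of Ndufa9, another accessory subunit, at −0.28 ± 0.13 (adjusted p = 0.216).

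Complexes II and III showed no member called in this comparison. The medians were 0.01 for the 4 subunits of succinate dehydrogenase and −0.03 for the 8 tested members of complex III, each with equal numbers above and below 0. In complex II the values ran from −0.10 ± 0.09 for Sdha, the flavoprotein that oxidises succinate (adjusted p = 0.505), to 0.22 ± 0.17 for Sdhd, a membrane anchor (adjusted p = 0.452). In complex III they ran from −0.18 ± 0.18 for Uqcr11, a small accessory subunit (adjusted p = 0.595), to 0.44 ± 0.22 for Uqcrh, the hinge protein near cytochrome c1 (adjusted p = 0.243).

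Complex IV, cytochrome c oxidase, had the highest median, 0.18, with 11 of 12 tested members above 0. Cox6a1, the widely expressed form of subunit VIa, had log2 signals of 13.05 and 13.15 in head at E9.5, 13.25 and 13.15 at E10.5, and 13.20 and 13.07 at E11.5. In trunk it had 13.00 and 12.90, then 12.85 and 12.97, then 12.88 and 13.03. All 6 head arrays lay above all 6 trunk arrays, with the lowest head array at 13.05 and the highest trunk array at 13.03. No other member separated in this way, and among all genes tested 1.66% did so with head higher and 1.19% with head lower. The difference on the brighter of its 2 probe sets was small, at 0.21 ± 0.05 or 1.15-fold (limma adjusted p = 0.0280). The dimmer gave 0.62, and the mean over both gave 0.41 (limma adjusted p = 0.0316). Cox5b, which binds zinc, had the highest value of the complex (0.23 ± 0.09, adjusted p = 0.154), and Cox7c had the only negative one (−0.25 ± 0.13, adjusted p = 0.277).

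In complex V the median was 0.08 and 15 of 17 members lay above 0. Atp5k, subunit e of the membrane part, where it helps ATP synthase to form dimers, had log2 signals of 10.31 and 10.72 in head at E9.5, 11.52 and 11.20 at E10.5, and 11.03 and 10.24 at E11.5. In trunk it had 10.66 and 9.88, then 9.79 and 10.06, then 10.02 and 10.75. Its tissues overlapped at E9.5 and E11.5 and separated at E10.5. The difference over the 3 stages was 0.64 ± 0.19, or 1.56-fold (limma adjusted p = 0.0497). This call was kept under none of 8 other settings (adjusted p = 0.0504 with quantile normalization and 0.0516 with median centring), whereas that of Cox6a1 was kept under 4 and that of Ndufa5 under 2. The most positive value in the complex belonged to Atp5md, at 0.93 ± 0.33 (adjusted p = 0.0985), and the most negative to Atp5pb, the peripheral stalk subunit b, at −0.11 ± 0.06 (adjusted p = 0.305).

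**Figure D2:**
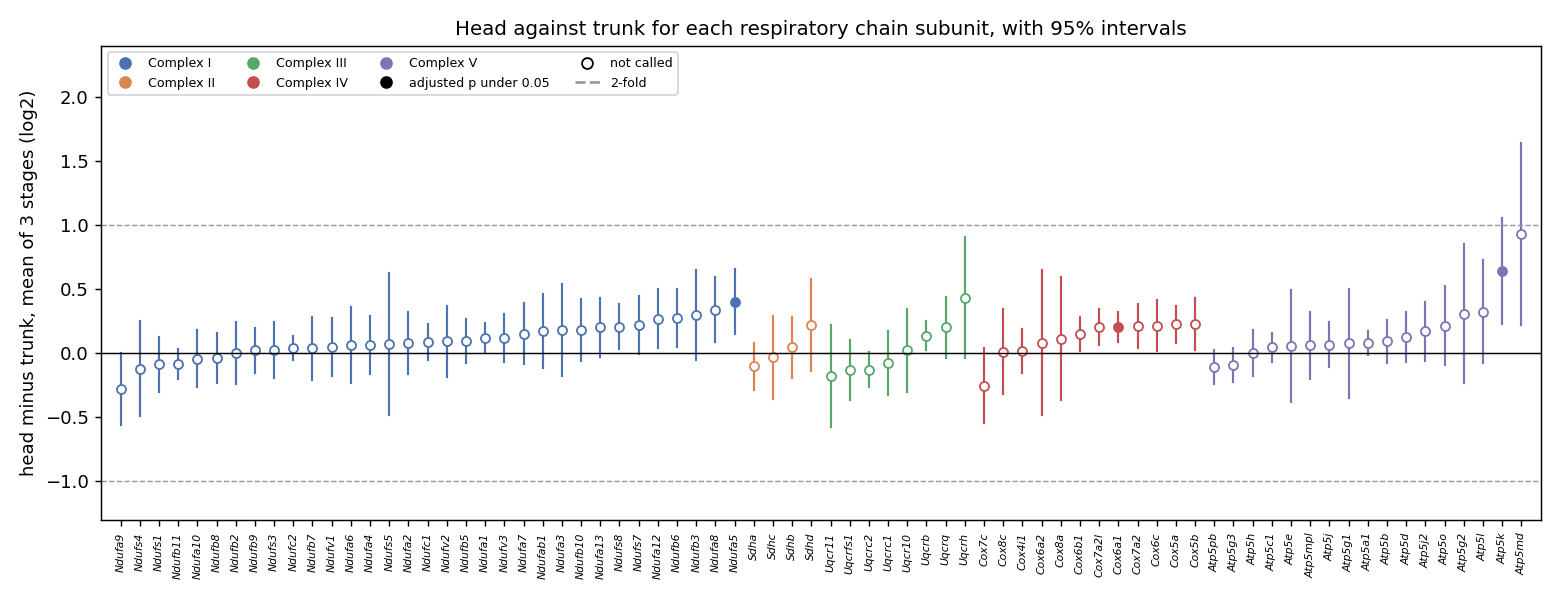
Head minus trunk, averaged over the 3 stages (vertical axis, log2), for each of the 74 tested members (horizontal axis), coloured by complex, with 95% intervals from limma. Filled points are the 3 members with an adjusted p under 0.05, and dashed lines mark 2-fold in each direction. Most points lie between 0 and 0.5.

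Markers of other cell types moved with the tissue. Averaged over stages, 9 of 9 tested markers of endothelium and 11 of 11 of neurons were higher in head. So were 7 of 8 of epithelium and 4 of 4 of macrophages and leukocytes. Lower in head were 8 of 19 tested skeletal muscle markers. Of all 7722 genes tested, 6.85% were higher in head and 279 were lower in this comparison. At E10.5 the summed signal of 10 endothelial markers was 4265 to 4421 in head and 1146 to 1430 in trunk, and that of 22 skeletal muscle markers was 5989 to 6812 in head and 14115 to 14275 in trunk. In the same groups 11 neuronal markers summed to 10274 to 10744 and 6459 to 6485, and 8 epithelial markers to 2729 to 3426 and 948.0 to 1410. Of 6 tested erythroid markers 1 was called higher in head, and all 6 lay above 0 averaged over stages, with a median of 0.78. The 10 erythroid markers summed at E10.5 to 19146 to 20324 in head and 9872 to 13673 in trunk. At E11.5 they summed to 8720 to 19292 in head and 11934 to 17137 in trunk. Of 11 heart markers 7, among them Myh6, Nppa and Tnni3, were below the median probe set on all arrays. Only 2 were tested. Averaged over stages, Nkx2-5 was higher in head at 1.91 ± 0.30 (limma adjusted p = 0.00139) and Tnnt2 lower at −1.17 ± 0.29 (adjusted p = 0.0241). Pecam1, a defining endothelial gene, was below the median probe set on all arrays, as were Ptprc, Tyrobp, Fcer1g and Cd68 of the leukocyte list. The part of these cells in the respiratory chain differences was not tested.

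Of the 6 members called between the tissues, averaged over stages or at E10.5, the promoters of the 3 called averaged over stages are shown. Each holds the letters of a site of NRF1, a transcription factor known to act on respiratory chain genes. Sequences are the 250 bases before the start in RefSeq (GRCm38.p6), all on the minus strand: Cox6a1 at chr5:115348959-115349208, Ndufa5 at chr6:24527691-24527940 (the more upstream of its 2 listed starts) and Atp5k at chr5:108434400-108434649. Capitals mark matches on either strand to the NRF1 letters (GCGC, any 2 bases, GCGC) or to the letters CCGGAAG of the ETS family, to which the nuclear respiratory factor GABP belongs.
Cox6a1: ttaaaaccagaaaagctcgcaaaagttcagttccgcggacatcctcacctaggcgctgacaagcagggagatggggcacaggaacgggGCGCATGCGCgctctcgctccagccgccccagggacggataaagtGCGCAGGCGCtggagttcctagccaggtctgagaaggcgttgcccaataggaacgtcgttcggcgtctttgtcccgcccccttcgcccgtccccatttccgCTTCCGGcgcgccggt
Ndufa5: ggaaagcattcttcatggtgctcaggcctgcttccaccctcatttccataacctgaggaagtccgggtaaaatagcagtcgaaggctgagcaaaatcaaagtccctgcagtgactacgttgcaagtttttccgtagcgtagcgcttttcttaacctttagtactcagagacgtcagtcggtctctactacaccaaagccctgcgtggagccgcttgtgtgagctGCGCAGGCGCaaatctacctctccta
Atp5k: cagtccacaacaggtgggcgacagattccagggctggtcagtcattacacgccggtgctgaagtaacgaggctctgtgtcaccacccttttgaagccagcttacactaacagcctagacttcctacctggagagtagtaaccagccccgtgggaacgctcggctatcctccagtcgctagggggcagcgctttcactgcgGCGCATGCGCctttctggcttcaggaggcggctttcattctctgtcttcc
Cox6a1 held 2 matches to the NRF1 letters, from −162 to −153 and from −117 to −108 relative to the start, and 1 ETS match from −16 to −10. Ndufa5 held 1 NRF1 match from −26 to −17 and Atp5k 1 from −50 to −41. After the start, outside the bases shown, Atp5k also held 1 ETS match. It held 1 match there to AAGGTCA, the letters of the oestrogen-related receptors. Among the members called at E10.5 alone, Cox5a held 0 matches to the NRF1 letters and 0 to the ETS letters, Ndufb6 held 0 and 1, and Cox6c had no listed promoter.

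A promoter was listed for 65 of the 79 members. Within 250 bases before to 50 after the start, the NRF1 letters occurred in 16 of these 65 genes (24.6%), against 6.23% of all 32851 listed promoters. The ETS letters occurred in 17 genes (26.2%, against 8.86%), and the letters AAGGTCA of the oestrogen-related receptors in 7 (10.8%, against 4.72%). The letters AANATGGC of YY1 occurred in 15 (23.1%, against 6.05%), of which 11 were among the 31 listed genes of complex I and 4 among the 15 of complex V. A match is a description of the sequence and not evidence of binding.

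Of the single stages, E10.5 was the one at which members were called between the tissues. At E9.5 limma called none of the 74 members and 5.92% of all genes tested, and an unadjusted p under 0.05 was reached by 3 members (4.05%) and by 16.3% of all genes. At E11.5 it called no member and 2.07% of all genes, and an unadjusted p under 0.05 was reached by 2 members (2.70%) and by 11.9% of all genes. At E10.5 there were 4 of 74 called, all higher in head, against 2.45% of all genes tested with head higher and 4.52% in either direction. An unadjusted p under 0.05 was reached at E10.5 by 22 members (29.7%) and by 24.0% of all genes. By complex these were 9 of 33 in I, 0 of 4 in II, 1 of 8 in III, 7 of 12 in IV and 5 of 17 in V. The median over members was −0.01 at E9.5, 0.18 at E10.5 and 0.14 at E11.5, against −0.01, −0.01 and 0.02 over all genes tested. Leaving out 1 array at a time, it ran from −0.085 (without replicate 2 of trunk) to 0.091 (without replicate 1 of head) at E9.5, and from 0.083 (without replicate 2 of head) to 0.22 (without replicate 1 of head) at E10.5. At E11.5 it was 0.0096 without replicate 1 of head, 0.051 without replicate 1 of trunk and 0.24 without replicate 2 of head.

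The 4 members higher in head at E10.5 came from 3 complexes. Atp5k differed most, by 1.44 ± 0.33 or 2.71-fold (limma adjusted p = 0.0320), from the signals given above. Ndufb6, an accessory subunit of the membrane arm of complex I, had 12.29 and 12.19 in head and 11.43 and 11.59 in trunk, a difference of 0.73 ± 0.18 or 1.65-fold (adjusted p = 0.0434). The dimmer of its 2 probe sets gave 0.30. Cox5a, a subunit of complex IV on the matrix side, had 13.18 and 13.12 in head and 12.63 and 12.73 in trunk, which is 0.47 ± 0.12 or 1.39-fold (adjusted p = 0.0418), though the dimmest of its 3 probe sets gave −0.079. For each of the 3 genes the lower head array stood above the higher trunk array. The genes were picked by this same comparison, so the separation adds no support to it.

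Cox6c, a single-span subunit of complex IV, had 12.37 and 12.56 in head and 11.80 and 11.89 in trunk at E10.5. The difference was 0.62 ± 0.16 or 1.54-fold (adjusted p = 0.0465), and the dimmer of its 2 probe sets gave 0.22. On the brighter probe set, the trunk arrays of E10.5 were the lowest of all 12. Cox6c was also picked by the comparison at E10.5, so this adds no support to it. At E9.5 the tissues overlapped for both genes, with 12.97 and 13.14 in head and 13.16 and 12.92 in trunk for Cox5a, and 12.29 and 12.25 in head and 12.55 and 12.02 in trunk for Cox6c.

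The head minus trunk value of Uqcr11 changed sign between stages, but no difference reached the threshold. Its log2 signals in head were 8.21 and 9.02 at E9.5, 8.73 and 8.89 at E10.5, and 9.89 and 9.43 at E11.5. In trunk they were 10.06 and 9.42, then 8.51 and 9.05, then 8.91 and 9.30. Head lay below trunk at E9.5 without overlap and above it at E11.5 without overlap. The gene was chosen after its values were seen, so this separation adds no support. The head minus trunk difference was −1.13 ± 0.32 at E9.5 (limma adjusted p = 0.0620) and 0.56 ± 0.32 at E11.5 (adjusted p = 0.572). Between the tissues the move between the first and last stage differed by 1.69 ± 0.45 (adjusted p = 0.103). Uqcrc2, a core protein of complex III, also missed the threshold at E9.5, at 12.06 and 12.03 in head and 12.50 and 12.37 in trunk (−0.39 ± 0.11, adjusted p = 0.0609).

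**Figure D3:**
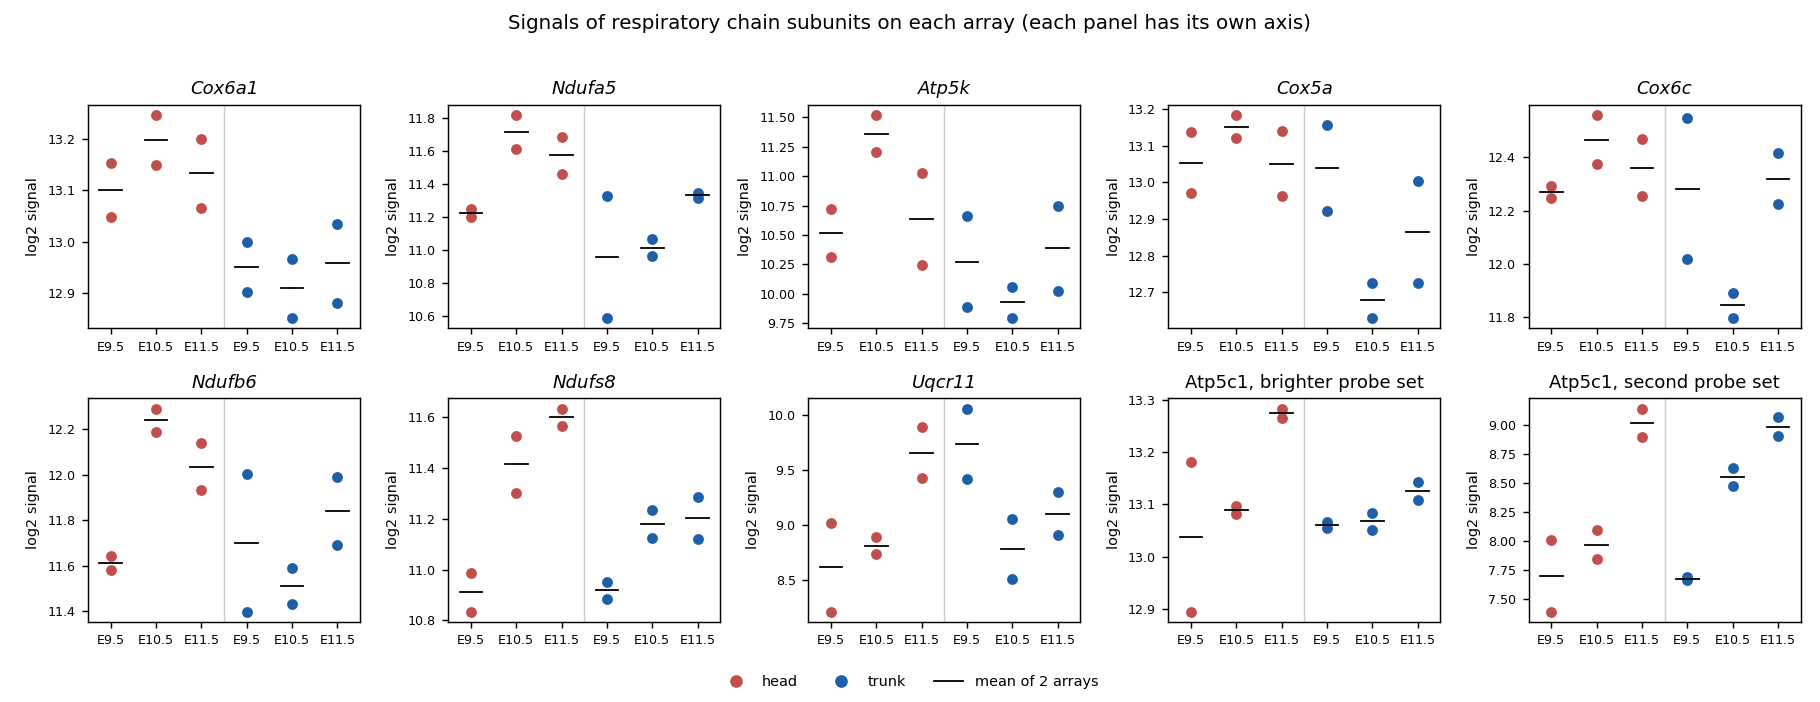
Log2 signal (vertical axis, its own range in each panel) by tissue and stage (horizontal axis) for the 7 called members, for Uqcr11 and for both probe sets of Atp5c1. Points are single arrays and bars are means of 2 arrays. Atp5k, Cox5a, Cox6c and Ndufb6 separate by tissue at E10.5, and the second probe set of Atp5c1 rises with stage in both tissues.

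The second question was whether the respiratory chain changed while muscle formed, from E9.5 to E11.5. In head 1 of 74 members rose and none fell, while 2.75% of all genes tested rose and 4.78% were called in either direction. In trunk limma called none of 74 and 13.4% of all genes tested, and an unadjusted p under 0.05 was reached by 1 member (1.35%) and by 26.3% of all genes. Over the same interval 17 of 19 tested skeletal muscle markers rose in head, with a median of 3.71 log2 units, and 18 of 19 in trunk, with a median of 3.22. The summed signal of the 22 markers rose from 2591 to 2931 in head at E9.5 to 19204 to 24736 at E11.5, and in trunk from 2289 to 4994 to 18510 to 25010. Epithelial markers fell, 8 of 8 tested in head and 6 of 8 in trunk, and 9 of 11 neuronal markers rose in trunk, and their part in the member values was not tested. The median change of the members was 0.14 in head and 0.03 in trunk. Leaving out 1 array at a time, it ran in head from 0.032 (without replicate 1 of E11.5) to 0.23 (without replicate 2 of E9.5), and it was 0.067 without replicate 1 of E9.5 and 0.22 without replicate 2 of E11.5. In trunk it was −0.033 without replicate 2 of E9.5, −0.016 without replicate 2 of E11.5, 0.090 without replicate 1 of E11.5 and 0.093 without replicate 1 of E9.5. The 95% interval stayed within 2-fold for 61 of 74 members in head and 67 of 74 in trunk, against 66.1% and 60.2% of all genes tested.

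The member that rose in head was Ndufs8, a core subunit of complex I that carries iron-sulphur clusters on the electron path. Its log2 signals in head were 10.83 and 10.99 at E9.5, 11.30 and 11.53 at E10.5, and 11.57 and 11.64 at E11.5. In trunk they were 10.95 and 10.88, then 11.13 and 11.23, then 11.12 and 11.29. The head arrays of the 3 stages did not overlap, and in trunk the E9.5 arrays lay below the others. Ndufs8 was picked by its change in head, so the separation of its head arrays adds no support to that change. The change in head was 0.69 ± 0.14 or 1.61-fold (limma adjusted p = 0.0137), and in trunk 0.29 ± 0.14 (adjusted p = 0.214). The difference between these changes was 0.40 ± 0.20 (adjusted p = 0.443), so the changes were not shown to differ. The probe set is one of 6 for the gene, and their mean gave 0.32 with an adjusted p of 0.305.

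The promoter of Ndufs8 is shown as that of the member that rose with stage, at chr19:3912775-3913024 on the minus strand in the same RefSeq build, with the YY1 letters in capitals from −165 to −158.
Ndufs8: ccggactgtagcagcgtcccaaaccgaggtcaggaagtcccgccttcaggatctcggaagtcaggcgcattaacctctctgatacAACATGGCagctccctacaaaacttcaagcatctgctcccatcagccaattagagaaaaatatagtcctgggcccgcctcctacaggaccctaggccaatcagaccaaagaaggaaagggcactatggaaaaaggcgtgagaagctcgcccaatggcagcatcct
These 250 bases held no match to the other letters searched, and 1 ETS match lay after the start.

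No other member was called from E9.5 to E11.5 in either tissue. In complex II the change in head ran from −0.19 ± 0.15 for Sdha (adjusted p = 0.583) to 0.54 ± 0.19 for Sdhb, the iron-sulphur subunit (adjusted p = 0.141). In complex III it ran from −0.69 ± 0.26 for Uqcr10 (adjusted p = 0.171) to 1.05 ± 0.32 for Uqcr11 (adjusted p = 0.0879). In complex IV the highest value was that of Cox7c, at 0.57 ± 0.23 in head (adjusted p = 0.204) and 0.52 ± 0.23 in trunk (adjusted p = 0.178). In complex V all 17 members lay at or above 0 in head, and 9 of 17 lay above 0 in trunk. The values in head ran from 0.00 ± 0.18 for Atp5j2 to 0.64 ± 0.32 for Atp5l. Of all genes tested, 50.7% lay above 0 in head and 48.7% in trunk. The median deviation of complex V on single head arrays was −0.20 and 0.04 at E9.5, and 0.23 and 0.01 at E11.5. The arrays of these stages thus overlapped.

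Between neighbouring stages limma called no member. Of all genes tested it called 0.958% in head from E9.5 to E10.5 and 0.984% from E10.5 to E11.5. An unadjusted p under 0.05 was reached there by 11 members (14.9%) against 15.6% of all genes, and by 9 members (12.2%) against 16.9%. In trunk it called 7.20% and 0.0259% of all genes over these intervals. An unadjusted p under 0.05 was reached by 5 members (6.76%) against 21.6% of all genes, and by 1 member (1.35%) against 7.78%. For a tissue difference of the E9.5 to E11.5 change it called no member and 1.48% of all genes tested, and an unadjusted p under 0.05 was reached by 3 members (4.05%) and by 12.2% of all genes.

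**Figure D4:**
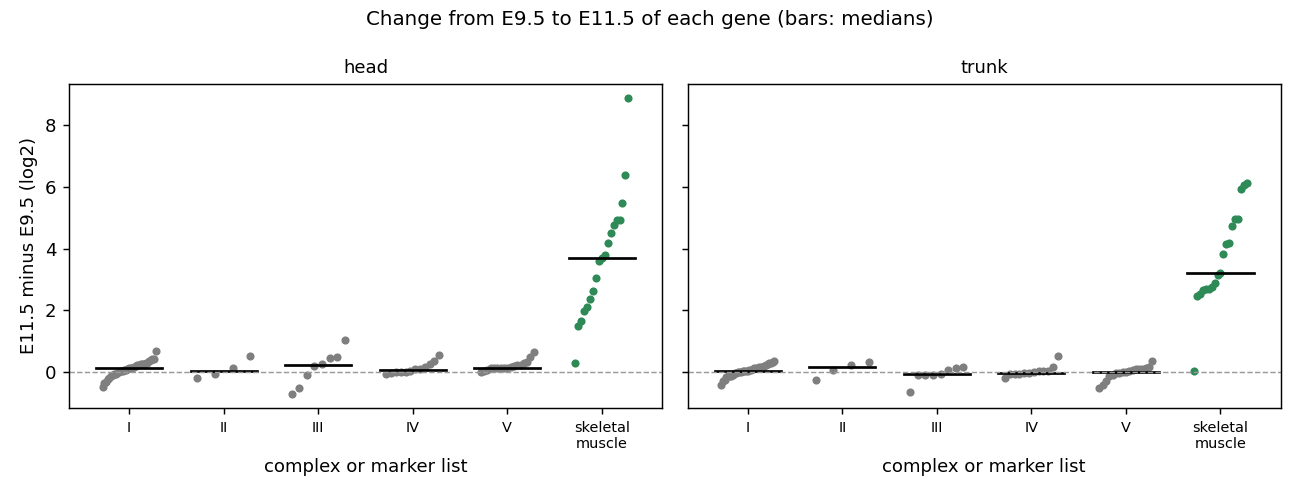
Change from E9.5 to E11.5 (vertical axis, log2) of each tested member by complex, and of the 19 tested skeletal muscle markers (horizontal axis), in head and in trunk. Points are genes and bars are medians. The complexes lie near 0 while the muscle markers have medians of 3.71 and 3.22.

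A second probe set of Atp5c1 rose with stage, although the brighter probe set that represents the gene was nearly level. Atp5c1 encodes the gamma subunit, the central stalk that turns inside ATP synthase, and its transcript is known to be spliced differently in heart and skeletal muscle. The brighter probe set stayed between 12.90 and 13.28 log2 units on all arrays. The second had 8.01 and 7.39 in head at E9.5, 8.09 and 7.84 at E10.5, and 8.90 and 9.14 at E11.5. In trunk it had 7.66 and 7.69, then 8.63 and 8.47, then 8.90 and 9.07. Trunk arrays were thus higher at E10.5 than at E9.5, whereas head arrays of these stages overlapped.

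With each of 11739 probe sets tested on its own, a setting added after the data were seen, the second probe set of Atp5c1 rose from E9.5 to E11.5 by 1.32 ± 0.24 in head (limma adjusted p = 0.00998) and 1.31 ± 0.24 in trunk (adjusted p = 0.00474). In that fit 3.77% and 10.8% of all probe sets were called. From E9.5 to E10.5 it changed by 0.27 ± 0.24 in head (adjusted p = 0.635) and 0.88 ± 0.24 in trunk (adjusted p = 0.0562). The head minus trunk difference at E10.5 was −0.58 ± 0.24 (adjusted p = 0.177). The head change had an adjusted p of 0.0584 without replicate 2 of head at E9.5 and of 0.0826 without replicate 2 of head at E11.5. The probe set was singled out after its values were seen, and which transcript form it matches was not tested.

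The tissue isoforms were compared next. Of the heart and skeletal muscle forms, Cox7a1 and Cox8b lay below the median probe set on all 12 arrays, with log2 signals of 3.20 to 5.29 and 2.59 to 5.28. Cox6a2 lay close to that median, above it on 6 of 12 arrays, with 6.77 and 6.81 in head at E9.5, 7.25 and 6.20 at E10.5, and 7.12 and 6.68 at E11.5. In trunk it had 7.18 and 6.51, then 5.90 and 6.97, then 6.67 and 7.11. The arrays of all groups overlapped, also at E11.5, where the skeletal muscle markers were high. Cox4i2, a form of lung and of hypoxic cells, and Cox6b2, a form of testis, were also below the median probe set on all arrays. Cox8c, a form of subunit VIII known from testis, lay above the median probe set on all 12 arrays. It had 7.95 and 7.36 in head at E9.5, 8.14 and 7.68 at E10.5, and 7.77 and 7.53 at E11.5. In trunk it had 7.86 and 7.87, then 7.34 and 7.69, then 7.75 and 7.83. It was called in none of the comparisons, with head minus trunk of 0.014 ± 0.15 averaged over stages (limma adjusted p = 0.969).

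The difference between the muscle and the widely expressed form of subunit VIa, Cox6a2 minus Cox6a1, was compared between groups rather than between probes. It differed by −0.12 log2 units between head and trunk (exact two-sided permutation test within stages, p = 0.546, adjusted over 3 pairs 0.546). From E9.5 to E11.5 it moved by 0.06 (exact permutation p = 0.714, adjusted 0.714). Atp5g1, Atp5g2 and Atp5g3 encode the same mature subunit c of the rotor ring with different import sequences. Relative to Atp5g3, Atp5g1 differed between head and trunk by 0.17 (exact permutation p = 0.472, adjusted 0.546) and Atp5g2 by 0.40 (exact permutation p = 0.204, adjusted 0.546). Their moves from E9.5 to E11.5 were −0.31 and −0.31 (exact permutation p = 0.257 and 0.4, both adjusted 0.6). The smallest p that the arrangements between tissues allow is 0.00926.

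**Figure D5:**
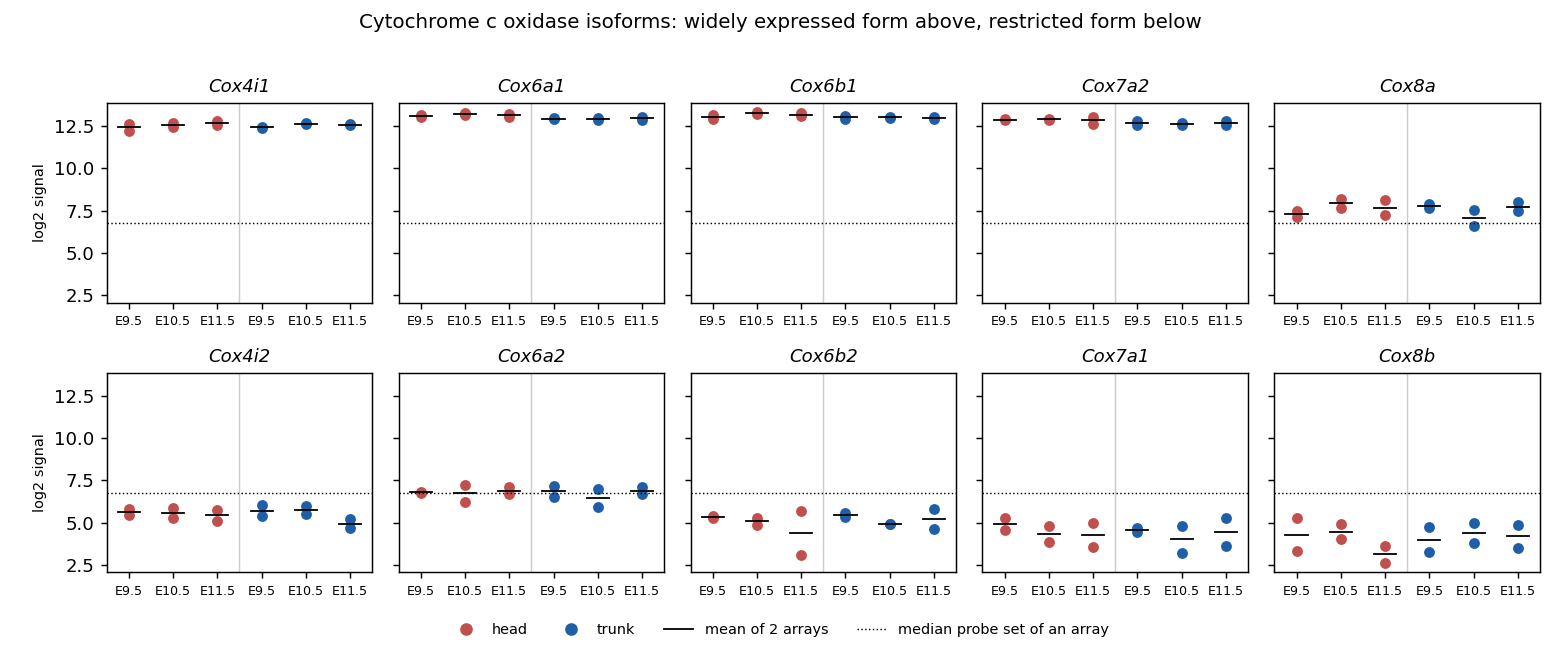
Log2 signal (vertical axis) by tissue and stage (horizontal axis) for 5 widely expressed subunits of complex IV (upper row) and their restricted forms (lower row). Points are arrays, bars are means of 2 arrays and the dotted line is the median probe set of an array. Of the 5 restricted forms drawn, Cox6a2 alone reaches the dotted line; Cox8c, which lies above it on all arrays, is not drawn.

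Other genes of mitochondrial energy supply were also compared between the tissues. Of all genes tested, 10.5% were called in either direction averaged over stages. In lists of 14 genes or fewer, 0 or 1 call cannot be told from that share. Averaged over stages, limma called none of 5 tested electron carriers, 22 assembly factors, 14 citrate cycle enzymes, 9 genes of mitochondrial DNA maintenance and 7 carriers and porins. Among 72 genes of the mitochondrial ribosome Mrpl44 was higher in head (0.40 ± 0.11, adjusted p = 0.0408). Of 9 regulators of mitochondrial genes, Ppargc1b, a coactivator of the oestrogen-related receptors, was higher in head by 0.99 ± 0.17 (adjusted p = 0.00218). The median of these 9 was −0.04, with 4 above 0. Gabpb1 (−0.38 ± 0.14, limma adjusted p = 0.124), Nrf1 (−0.28 ± 0.14, adjusted p = 0.236) and Yy1 (−0.14 ± 0.07, adjusted p = 0.231) lay below 0 and were not called. Ppargc1b also rose from E9.5 to E11.5, by 1.26 ± 0.29 in head (adjusted p = 0.0254) and 0.97 ± 0.29 in trunk (adjusted p = 0.0450).

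These lists also held genes that changed with stage. From E9.5 to E11.5 in trunk, 3 of 72 mitochondrial ribosome genes fell, a share close to the 4.71% of all genes tested that fell. They were Mrpl12, Mrps18b and Mrpl17, with values from −0.94 to −1.06, and the median of the list was −0.26 with 11 of 72 above 0. Suclg2 of the citrate cycle (−0.97 ± 0.26, adjusted p = 0.0289) and Polg, the mitochondrial DNA polymerase (−0.88 ± 0.21, adjusted p = 0.0148), also fell there. Etfa, part of the flavoprotein that brings electrons from fatty acid oxidation, rose by 1.05 ± 0.19 (adjusted p = 0.00364). In head Vdac1, a porin of the outer membrane, fell by 0.71 ± 0.13 (adjusted p = 0.00740). At E10.5 Cycs, which encodes cytochrome c, was higher in head by 0.62 ± 0.15 (adjusted p = 0.0363).

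Each call among the members was lost on leaving out at least 1 array. Without both E10.5 arrays of low Xist, an alternative added after the data were seen, no member was called at E10.5 or averaged over stages, and calls over all genes tested fell from 349 to 34 and from 808 to 446. The differences at E10.5 were then 1.15 for Atp5k, 0.60 for Ndufb6, 0.39 for Cox5a and 0.67 for Cox6c. Averaged over stages they were 0.55 for Atp5k, 0.39 for Ndufa5 and 0.17 for Cox6a1. Leaving out 1 array at a time kept the call of Ndufa5 in 1 of 12 fits, the one without replicate 1 of trunk at E9.5 (adjusted p from 0.00285 to 0.130 over the 12). Atp5k over the 3 stages kept its call in 3 (up to 0.143), those without replicate 2 of head at E11.5, replicate 1 of trunk at E9.5 and replicate 2 of trunk at E11.5. Cox6a1 kept it in 6 and lost it without replicate 2 of head or trunk at E9.5, or replicate 1 of either tissue at E10.5 or E11.5 (up to 0.0947). At E10.5 Atp5k kept its call in 9, Cox5a in 8, Ndufb6 in 6 and Cox6c in 4, with adjusted p of up to 0.229, 0.242, 0.245 and 0.244. These calls were lost without any 1 array of E10.5, except that Atp5k kept it without replicate 2 of head. Ndufb6 was also lost without either head array of E9.5, and Cox6c without either of those or either trunk array of E11.5. Ndufs8 kept its call in 9 and lost it without replicate 1 of head at E9.5 or either head array of E11.5 (up to 0.106).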

How the data were processed

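Sorted cells of 12 samples were measured on an Affymetrix mouse array. The values are intensity signals per probe set as deposited by the authors, on a linear scale, and the submitters' processing notes name MAS5 and Affymetrix Expression Console without versions. Per the labels, RNA was extracted with QIAzol and amplified before hybridisation. Any later normalization and the genome build are not given in the sources used here. Log2 was taken here from the deposited intensity. Of 22690 probe sets, 64 controls, 691 annotated to several genes and 1555 to none were left out.

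Comparisons used limma 3.58.1 in R 4.3.3, with a mean for each of 6 groups and a spread that follows the intensity (degrees of freedom 6 residual, 5.87 prior). Tests were two-sided in 11 comparisons, and p-values were adjusted by Benjamini-Hochberg over 7722 genes. The procedure was tested on simulated data. Members and lists were chosen with earlier results of these data known. Named are the called members (up to 10, or 5 at single steps, each way), the extreme members of each complex, the isoforms, and up to 4 genes of smallest p of each list; Uqcr11 at all stages, Uqcrc2, Ndufb2 and the second probe set of Atp5c1 were chosen after their values were seen. Promoter sequences come from RefSeq. The number of arrays limits the precision. Alternatives covered scaling, the filter, the trend, the choice of probe sets, the replicate block and leaving out arrays.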

Additional observations from a re-analysis of the deposited data

How the results depend on the processing

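The count of members called averaged over stages (3) fell to 1 with median centring or the mean over a gene's probe sets, and to 0 with no filter on low signals, with no intensity trend, without probe sets of the suffixes _s, _x and _a, and without both E10.5 arrays of replicate 1. At E10.5 the count (4) fell to 1 with no filter or no trend, to 2 with each probe set tested on its own, and to 0 with the mean over probe sets, without suffixed probe sets and without both E10.5 arrays of replicate 1. With the mean over probe sets 1 member was called in head from E10.5 to E11.5 and 1 in trunk from E9.5 to E11.5; without suffixed probe sets 1 in trunk from E9.5 to E10.5 and 1 from E9.5 to E11.5; with each probe set on its own 1 in trunk and 2 in head from E9.5 to E11.5. All of these are Atp5c1, with Ndufs8 the other one in head. Tests of single probe sets and the removal of both E10.5 arrays were chosen after seeing the data. The cause of these moves was not tested.

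Leaving out 1 array at a time gave counts of 0 to 6 averaged over stages and at E10.5, 0 to 1 at E9.5, 0 to 3 in head from E9.5 to E11.5, and 0 to 1 in head from E10.5 to E11.5 and in trunk from E9.5 to E10.5 or to E11.5. These fits turned the sign of values near 0: Cox7a2 in head from E9.5 to E11.5 ranged from −0.24 to 0.15, Atp5j2 from −0.23 to 0.23, Sdhd in trunk from −0.59 to 0.10, and the Cox6a2 minus Cox6a1 difference from −0.28 to 0.035 between tissues and from −0.018 to 0.19 between stages. The tissue difference of the Atp5c1 second probe set's change was 0.01 and ranged from −0.30 to 0.32.

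The choice of probe sets turned others. With their mean, Sdhd averaged over stages was −0.27, Cox7a2 in head 0.078 and Ndufa5 in trunk −0.079. Without suffixed probe sets Cox5b averaged over stages was −0.15, Cox5a at E10.5 −0.079, Cox7a2 in head 0.20 and Ndufa5 in trunk −0.53. Of 39 tested members with several probe sets that passed the filter, 13 had one of opposite sign between head and trunk.

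With the replicate number as a block, 3 members were called averaged over stages (Ndufa5, Cox6a1 and Atp5md) and 2 at E10.5 (Atp5k and Atp5md). Deviations of replicate 1 correlated between groups by −0.30 to 0.17 over 15 pairs of groups. For head and trunk of the same stage the values were 0.0057 at E9.5, −0.0005 at E10.5 and −0.096 at E11.5. Xist, however, was low on replicate 1 of both tissues at E10.5. Whether the numbers pair the samples is therefore not settled. Replicate 1 of Atp5md was higher in 6 of 6 groups, so the block lowers its residual spread by construction.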

Other observations

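Atp5md, a small membrane subunit of ATP synthase, had the widest spread between replicates among the tested members. Its log2 signals were 10.38 and 9.43 in head at E9.5, 11.22 and 10.22 at E10.5, and 11.14 and 9.12 at E11.5 for replicates 1 and 2. In trunk they were 9.92 and 9.01, then 9.05 and 8.81, then 9.75 and 9.37. The array labelled replicate 1 was higher in 6 of 6 groups, and the gap in head at E11.5, 2.02, was the widest of any tested member in any group. The head minus trunk difference was 0.93 averaged over stages (limma adjusted p = 0.0985) and 1.79 at E10.5 (adjusted p = 0.0893).

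Atp5l, subunit g of ATP synthase and a neighbour of subunit e in the membrane, lay near the median probe set, above it on 3 of 12 arrays. At E10.5 it had 7.37 and 6.93 in head and 6.07 and 5.91 in trunk, a difference of 1.16 ± 0.32 (limma adjusted p = 0.0610, and 0.0170 without the intensity trend).

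Ndufa12, an accessory subunit of complex I, was called for a second probe set alone when each was tested on its own. That probe set was higher in head by 0.46 averaged over stages (limma adjusted p = 0.0297), and the brighter one by 0.27 ± 0.10 (adjusted p = 0.131 in the test over genes). Atp5md, Atp5l and Ndufa12 were chosen after their values were seen.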
